A study of Mus musculus with 12 samples.

Results

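The genes of the proteasome, its immunoproteasome forms, its activators and its assembly factors were followed by RNA sequencing in SCC7, a mouse line of squamous cell carcinoma. Members were all protein-coding genes whose mouse symbol starts with Psm, a letter from a to g and a number, without pseudogenes, which gave 50 of the 55487 genes in the count table. SCC7 cells of wild-type genotype were grown for 24 h in medium conditioned (CM) by mouse bone-marrow-derived macrophages that had themselves been treated for 24 h. M1 CM came from macrophages given interferon-gamma at 20 ng/ml, M2 CM from macrophages given interleukin-4 at 20 ng/ml, TAM CM (tumour-associated macrophage) from macrophages given 75% SCC7-conditioned medium, and M0 CM from macrophages in control medium. Each of the 4 media had 3 libraries of SCC7 RNA, 12 together, and all come from 1 cell line. The sources used here do not say whether the cytokines were removed before the media were collected. They also do not say whether the 3 libraries of a medium were separate cultures, so the p-values rest on the spread between samples alone, and that spread may be technical.

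The proteasome is the chamber in which cells break down proteins tagged with ubiquitin. Its core is a barrel of alpha rings around beta rings that hold the cutting sites, and a regulatory particle with a base of ATPases and a lid binds the tagged protein, removes the tag and feeds the chain in. Interferon-gamma is known to induce 3 replacement cutting subunits, encoded by Psmb8, Psmb9 and Psmb10. They form the immunoproteasome, and the activator PA28, encoded by Psme1 and Psme2, is induced with them. Immunoproteasomes are known for producing peptides that fit MHC class I molecules.

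Library totals ran from 18996937 to 22596630 counts, and members held 0.676% to 0.865% of them. Values are counts-per-million (CPM) on TMM-scaled library sizes, where TMM is edgeR's correction for library composition. A gene was called where the quasi-likelihood test of edgeR, run over 14509 genes, gave an adjusted p (Benjamini-Hochberg) below 0.05. The biological coefficient of variation was 3.65%, so small differences were called. Of all genes tested 53.4% were called in M1 CM against M0 CM, 39.4% in M2 CM, and the most, 70.0%, in TAM CM. Of the 10 markers of squamous and epithelial cells, Krt6a and Epcam had no counts in any medium. Krt5, Krt14, Cdh1 and Dsp were near the floor. Their highest means, all in M0 CM, were 0.0161, 0.0709, 0.0746 and 1.55 CPM. The list sum, mostly Krt8 and Krt18, was 167 to 171 CPM in M1 CM, 679 to 758 CPM in M2 CM, 91.1 to 101 CPM in TAM CM and 361 to 391 CPM in M0 CM. Of the 10 macrophage markers Tyrobp had no counts in any medium. Their sum was 33.7 to 39.9 CPM in M1 CM, 22.5 to 24.9 CPM in M2 CM, 41.0 to 50.5 CPM in TAM CM and 22.8 to 24.0 CPM in M0 CM. Most of it was Cd14, at 26.1 CPM in M1 CM, 15.9 CPM in M2 CM, 40.9 CPM in TAM CM and 17.3 CPM in M0 CM, while Cd68 had 6.99, 5.03, 2.89 and 3.89 CPM in the same order. Fibroblast markers summed to 1225 to 1311 CPM in M1 CM, 1304 to 1327 CPM in M2 CM, 1075 to 1124 CPM in TAM CM and 2145 to 2275 CPM in M0 CM. That sum follows Col1a1 and Col1a2, whereas Pdgfra had 263 CPM in M1 CM, 168 CPM in M2 CM, 320 CPM in TAM CM and 236 CPM in M0 CM. Lum had no counts in any medium. The part of these differences in the results below was not tested, and in bulk RNA fewer cells of a type and less RNA per cell cannot be told apart. For the third library of M2 CM the labels name a melanoma as cell type. The 7 melanocyte markers summed to 5.57 to 7.34 CPM over the M2 CM libraries, with Mlana, Dct, Tyrp1 and Sox10 at 0, against 7.21 to 9.31 CPM in M0 CM. The main counts of calls in M2 CM comparisons, over all members, the core and the regulatory particle, are also given without this library. Other counts, such as those of groups not overlapping and of the order of the media, include it.

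By role the 50 members were 7 alpha ring genes, 4 structural beta genes, the 3 constitutive cutting subunits, their 3 inducible replacements, 6 ATPases and 3 other proteins of the base, 8 lid genes, 3 base and 4 core assembly chaperones, 5 activators, the regulator Psmf1, and 3 that stood aside. Psma8, the testis form of an alpha subunit, had 0 counts in all 12 libraries, and Psmb11, the thymus form of a cutting subunit, had 3 counts in all, in M0 CM, so both failed the filter and 48 members were tested. Psmc3ip matches by symbol, but its product works in meiotic recombination and is not a subunit.

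The promoter windows below, taken from RefSeq on GRCm38.p6, run from 250 bases before to 50 after each start. They are shown for the inducible genes that moved most in M1 CM and for the single subunits that moved most in M2 CM (Psmc4) and TAM CM (Psmd8). Capitals mark matches on either strand to 1 of 2 motifs. The first is the interferon-stimulated response element, searched as GAAA, 2 free bases and GAAA again. The second is TTCNNNGAA, the letters of an interferon-gamma-activated site. The windows lie at chr17:34197945-34198244 (plus strand) for Psmb8, chr17:34187281-34187580 (minus) for Psmb9, chr8:105938343-105938642 (minus) for Psmb10, chr14:55578244-55578543 (plus) for Psme1, chr14:55590972-55591271 (minus) for Psme2, chr7:28050043-28050342 (minus) for Psmc4 and chr7:29180624-29180923 (minus) for Psmd8.
Psmb8: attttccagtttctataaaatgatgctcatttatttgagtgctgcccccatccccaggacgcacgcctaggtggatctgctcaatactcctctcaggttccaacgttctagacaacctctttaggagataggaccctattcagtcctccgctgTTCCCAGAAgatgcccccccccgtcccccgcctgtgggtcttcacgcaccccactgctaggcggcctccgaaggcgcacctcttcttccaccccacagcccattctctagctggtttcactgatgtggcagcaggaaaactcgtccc
Psmb9: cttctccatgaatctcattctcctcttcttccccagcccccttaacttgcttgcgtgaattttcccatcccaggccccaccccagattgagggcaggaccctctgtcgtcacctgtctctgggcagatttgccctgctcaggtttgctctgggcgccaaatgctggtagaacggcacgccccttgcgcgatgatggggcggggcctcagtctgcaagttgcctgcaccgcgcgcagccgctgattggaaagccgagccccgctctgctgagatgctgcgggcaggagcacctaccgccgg
Psmb10: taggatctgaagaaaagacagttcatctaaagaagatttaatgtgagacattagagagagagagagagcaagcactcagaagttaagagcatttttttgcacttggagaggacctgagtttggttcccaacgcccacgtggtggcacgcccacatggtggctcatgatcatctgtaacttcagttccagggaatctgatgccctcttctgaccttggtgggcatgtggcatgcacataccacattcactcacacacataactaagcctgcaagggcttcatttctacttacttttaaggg
Psme1: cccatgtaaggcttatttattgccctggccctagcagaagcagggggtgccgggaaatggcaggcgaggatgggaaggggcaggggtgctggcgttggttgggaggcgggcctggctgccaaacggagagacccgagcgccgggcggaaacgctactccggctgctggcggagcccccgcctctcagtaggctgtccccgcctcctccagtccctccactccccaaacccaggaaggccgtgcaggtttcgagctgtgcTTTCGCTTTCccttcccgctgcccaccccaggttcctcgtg
Psme2: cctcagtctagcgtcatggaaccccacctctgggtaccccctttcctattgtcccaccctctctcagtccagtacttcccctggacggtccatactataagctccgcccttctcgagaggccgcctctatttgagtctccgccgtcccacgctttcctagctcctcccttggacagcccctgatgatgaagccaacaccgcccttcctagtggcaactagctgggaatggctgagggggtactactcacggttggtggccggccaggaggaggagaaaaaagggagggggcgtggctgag
Psmc4: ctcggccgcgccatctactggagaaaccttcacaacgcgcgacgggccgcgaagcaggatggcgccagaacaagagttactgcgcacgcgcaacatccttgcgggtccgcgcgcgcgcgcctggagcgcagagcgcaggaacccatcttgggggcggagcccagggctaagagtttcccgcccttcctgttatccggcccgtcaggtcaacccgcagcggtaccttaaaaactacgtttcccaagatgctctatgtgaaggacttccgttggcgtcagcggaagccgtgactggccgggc
Psmd8: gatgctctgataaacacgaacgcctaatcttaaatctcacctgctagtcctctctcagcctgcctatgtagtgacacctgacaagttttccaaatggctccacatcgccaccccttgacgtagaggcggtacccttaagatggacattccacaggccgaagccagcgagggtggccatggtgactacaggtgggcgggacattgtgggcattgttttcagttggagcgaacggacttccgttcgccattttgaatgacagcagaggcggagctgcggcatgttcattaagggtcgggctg

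In these windows TTCNNNGAA stood once in Psmb8, at -97 from the start, and the interferon-stimulated response element once in Psme1, at 9 bases past the start. Neither was in the windows shown for Psmb9, Psmb10, Psme2, Psmc4 or Psmd8, nor in that of Psme2b or the second, overlapping window of Psme2. RefSeq windows matched 42 of the 50 members, with 45 windows in all. The interferon-stimulated response element was in 5 of the 45, against 3.44% of the 32851 mouse windows of this length, and the other 4 were those of Psmb3, Psmd4, Psmd9 and Psmg4. TTCNNNGAA was in 3 of the 45, against 8.3% of all windows, the others being Psmd2 and Psmg1. TGANNNNGC, the letters of an antioxidant response element, was in 26 of the 45, against 41.3% of all windows, and overlapped a match to one of the first motifs in Psmg1 and Psmg4. The form of the site that STAT6 is known to prefer, with 4 free bases between TTC and GAA, was added after the values had been seen. It was in 1 of the 45, that of Psmb10, against 6.95% of all windows. A match is a description of letters, not a site shown to be used.

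The first comparison asked how the inducible and constitutive cutting subunits stood in cells kept in M1 CM. All 3 inducible subunits were several fold higher in M1 CM relative to M0 CM. Of their 3 constitutive counterparts, 2 were higher by little and 1 was lower. Psmb8, which replaces Psmb5 in the chymotrypsin-like site, had 266, 302 and 233 CPM in M1 CM, 47.2, 46.5 and 40.4 CPM in M2 CM, 39.9, 44.6 and 43.2 CPM in TAM CM, and 53.3, 57.0 and 54.4 CPM in M0 CM. Psmb9, which replaces Psmb6 in the caspase-like site, had 283, 259 and 254 CPM in M1 CM, 20.7, 21.6 and 16.8 CPM in M2 CM, 10.6, 11.5 and 9.57 CPM in TAM CM, and 20.5, 22.1 and 22.9 CPM in M0 CM. Psmb10, which replaces Psmb7 in the trypsin-like site, had 285, 271 and 267 CPM in M1 CM, 35.7, 41.2 and 32.5 CPM in M2 CM, 25.8, 25.9 and 25.9 CPM in TAM CM, and 39.4, 39.5 and 38.0 CPM in M0 CM. The M1 CM libraries lay far above all others for each of the 3 genes. The TAM CM libraries lay below all M0 CM libraries, and in M2 CM the third library was the lowest each time.

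Against M0 CM, the log2 fold change in M1 CM was 3.60 for Psmb9 (SE 0.06, edgeR adjusted p = 1.8e-24), 12.2-fold, making it the 163rd largest of 14509. For Psmb10 it was 2.82 (SE 0.05, edgeR adjusted p = 1.63e-37), 7.04-fold, and for Psmb8 2.28 (SE 0.10, edgeR adjusted p = 3.46e-08), 4.87-fold. None of the 3 was called in M2 CM, with log2 fold changes against M0 CM of -0.15 for Psmb9, -0.10 for Psmb10 and -0.29 for Psmb8 (edgeR adjusted p = 0.165, 0.172 and 0.0707). All 3 fell in TAM CM, by 1.04 for Psmb9, 0.59 for Psmb10 and 0.36 for Psmb8 on the log2 scale (edgeR adjusted p = 3.2e-10, 1.58e-11 and 0.0186). The call of Psmb8 in TAM CM was lost without the second M0 CM library (edgeR adjusted p = 0.0523) and without the first TAM CM library (edgeR adjusted p = 0.0609). TAM CM was also below M2 CM for Psmb9 by 0.89 and for Psmb10 by 0.49 on the log2 scale (edgeR adjusted p = 8.48e-09 and 2.65e-09), while for Psmb8 the log2 difference was -0.07 (SE 0.12, edgeR adjusted p = 0.633).

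Of the constitutive cutting subunits, Psmb5 had 68.7, 83.6 and 63.0 CPM in M1 CM, 67.7, 60.1 and 59.9 CPM in M2 CM, 69.3, 72.2 and 69.6 CPM in TAM CM, and 58.5, 56.9 and 56.1 CPM in M0 CM. Psmb6 had 174, 172 and 166 CPM in M1 CM, 172, 161 and 165 CPM in M2 CM, 180.1, 172 and 179 CPM in TAM CM, and 155, 145 and 161 CPM in M0 CM. Psmb7 had 105, 116 and 107 CPM in M1 CM, 133, 138 and 128 CPM in M2 CM, 93.5, 95.5 and 93.9 CPM in TAM CM, and 117, 123 and 116 CPM in M0 CM. The M0 CM libraries were the lowest for Psmb5 and Psmb6, without overlap. For Psmb7 they lay below M2 CM and above M1 CM and TAM CM, with 1 library of M1 CM only just under the lowest of M0 CM. In M1 CM against M0 CM the log2 fold changes were 0.33 for Psmb5, 0.15 for Psmb6 and -0.12 for Psmb7 (edgeR adjusted p = 0.00758, 0.000508 and 0.0112). In TAM CM they were 0.30, 0.20 and -0.33 in the same gene order (edgeR adjusted p = 0.00946, 3.78e-06 and 4.06e-10). The call of Psmb7 in M1 CM was lost without the second M0 CM library (edgeR adjusted p = 0.0853) and without the first M1 CM library (edgeR adjusted p = 0.0833). With library sizes alone, that is without TMM, the calls of Psmb6 in M1 CM and Psmb5 in TAM CM were lost (edgeR adjusted p = 0.0517 and 0.0673). Psmb7 overlaps Nek6 on the other strand, and with no strand setting stated for the counting, reads of the pair cannot be told apart.

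**Figure D1:**
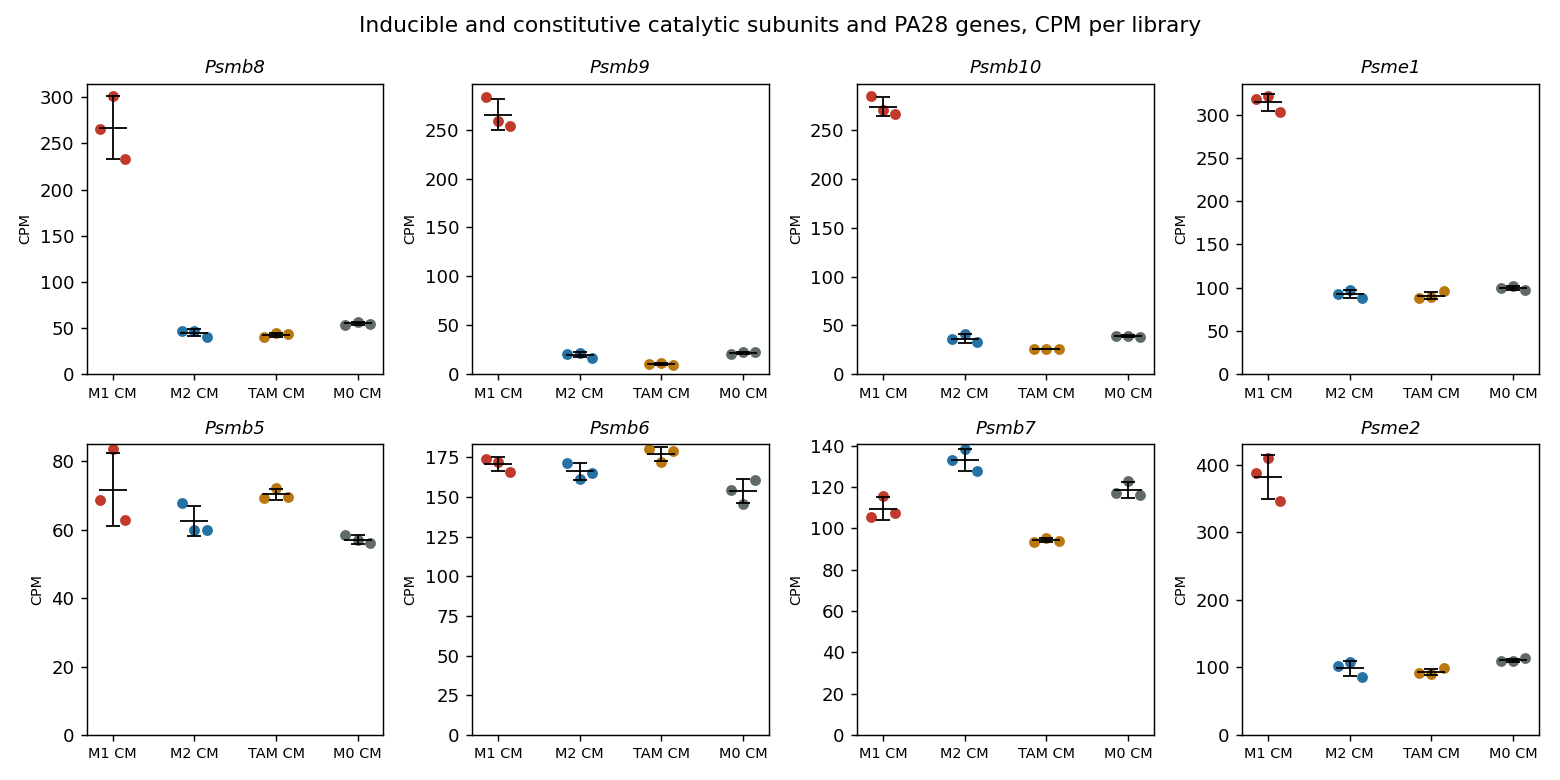
Each point is 1 library, in counts-per-million (CPM) on a linear axis from 0, with bars for the mean and SD of 3 libraries per medium. The M1 CM libraries of Psmb8, Psmb9, Psmb10, Psme1 and Psme2 stand well above those of the other media, while Psmb5, Psmb6 and Psmb7 vary within a narrow range.

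To compare levels between genes, CPM were divided by the union exon length in kilobases. The 3 inducible subunits together then held 60.6% ± 1.24 of the level of all 6 cutting subunits in M1 CM, 16.8% ± 1.46 in M2 CM, 13.3% ± 0.333 in TAM CM and 20.0% ± 0.576 in M0 CM (SD, n = 3 each). The M1 CM libraries ran from 59.3% to 61.8%, above all others. The M2 CM libraries, at 15.6% to 18.5%, and the TAM CM libraries, at 13.0% to 13.6%, all lay below the M0 CM libraries, at 19.7% to 20.7%. By pair, Psmb8 held 49.8% ± 0.882 of the level of Psmb8 and Psmb5 in M1 CM, 16.0% ± 0.982 in M2 CM, 13.8% ± 0.499 in TAM CM and 20.4% ± 0.770 in M0 CM. Psmb9 held 44.3% ± 1.04 of its pair with Psmb6 in M1 CM, 5.72% ± 0.727 in M2 CM, 2.97% ± 0.327 in TAM CM and 6.78% ± 0.436 in M0 CM. Psmb10 held 83.4% ± 0.980 of its pair with Psmb7 in M1 CM, 35.4% ± 1.84 in M2 CM, 35.5% ± 0.237 in TAM CM and 39.7% ± 0.566 in M0 CM. These are shares of messenger RNA, since no protein was measured, and their height depends on the lengths used and on reads shared with copies. Psmb5 has a processed pseudogene, Gm3375, that is 98.9% identical over 796 bases and held 103% as many counts as Psmb5 itself. With these counts added to Psmb5 the inducible share was 53.2% in M1 CM, 12.9% in M2 CM, 9.52% in TAM CM and 15.6% in M0 CM. The share of Psmb8 in its pair was then 34.1% ± 1.38 in M1 CM, 8.45% ± 0.421 in M2 CM, 6.92% ± 0.513 in TAM CM and 11.3% ± 0.310 in M0 CM.

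**Figure D2:**
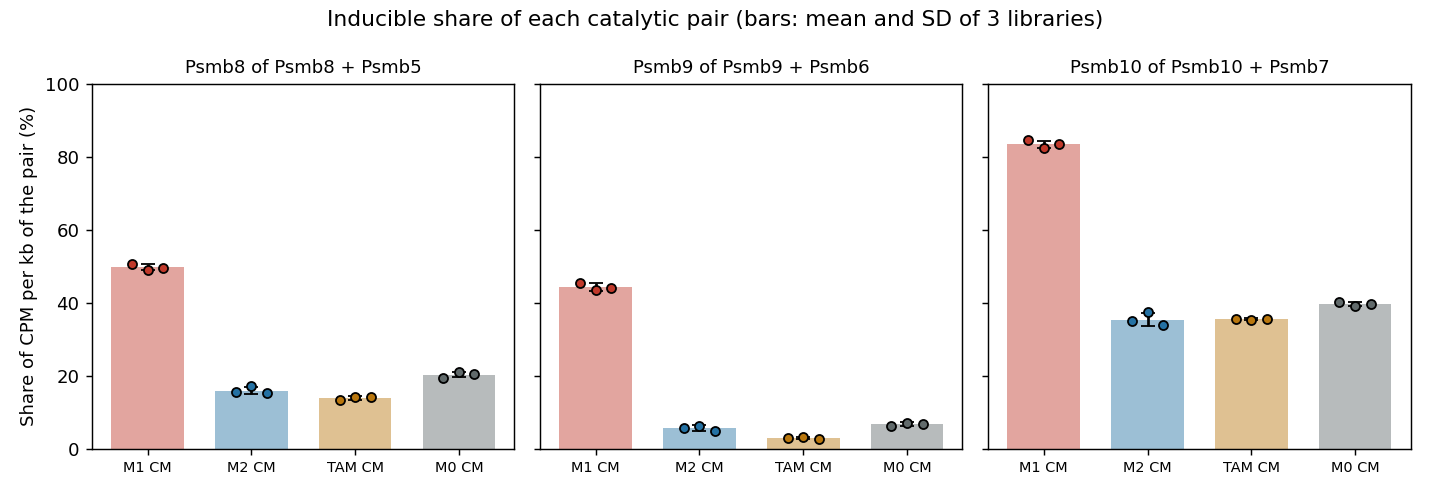
Bars give the mean share (percent) of the inducible subunit in the length-scaled level of its pair, from 0 to 100, with SD over 3 libraries and a point per library. In every pair M1 CM is highest, at 49.8% for Psmb8, 44.3% for Psmb9 and 83.4% for Psmb10, and the M2 CM and TAM CM means lie below those of M0 CM. Counts of the near copy of Psmb5 are left out here, and with them the M1 CM share of Psmb8 was 34.1%.

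Activators cap the core in place of the regulatory particle. Of these, Psme1 and Psme2, the genes of the interferon-inducible PA28, stood with the inducible subunits in M1 CM. So did Psme2b, a near copy of Psme2. Psme1, encoding PA28 alpha, had 318, 322 and 304 CPM in M1 CM, 92.6, 97.5 and 87.7 CPM in M2 CM, 88.3, 88.8 and 95.6 CPM in TAM CM, and 99.0, 102 and 96.9 CPM in M0 CM. Psme2, encoding PA28 beta, had 388, 410.4 and 346 CPM in M1 CM, 102, 107 and 86.2 CPM in M2 CM, 90.9, 90.0 and 98.5 CPM in TAM CM, and 109, 109 and 113 CPM in M0 CM. Every M1 CM library lay above all other libraries for both genes, and the TAM CM libraries lay just below those of M0 CM. The log2 fold change in M1 CM was 1.67 for Psme1 (SE 0.04, edgeR adjusted p = 2.02e-37), 3.17-fold, and 1.79 for Psme2 (SE 0.09, edgeR adjusted p = 6.72e-08), 3.46-fold. In TAM CM both fell, by 0.13 for Psme1 and 0.24 for Psme2 on the log2 scale (edgeR adjusted p = 0.00585 and 0.0385). The call of Psme2 was lost on leaving out any library of M0 CM, or the first or second of TAM CM (edgeR adjusted p = 0.0646 to 0.111). In M2 CM the log2 fold change of Psme1 was -0.10 (edgeR adjusted p = 0.0474), the 1 member called lower there. This call was lost without the third M2 CM library (edgeR adjusted p = 0.253), and by DESeq2 (adjusted p = 0.0649). It was also lost without the first M2 CM library or the first or second M0 CM library (edgeR adjusted p = 0.0933 to 0.143).

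Psme2b, an intronless near copy of Psme2 on another chromosome, had 118, 132 and 111 CPM in M1 CM, 31.0, 27.7 and 24.6 CPM in M2 CM, 25, 25.8 and 28.7 CPM in TAM CM, and 31.5, 32.6 and 31.4 CPM in M0 CM. Its log2 fold changes, 1.92 in M1 CM and -0.26 in TAM CM (edgeR adjusted p = 2.49e-17 and 0.00557), were close to those of Psme2. The 2 transcripts are 99.4% identical over 794 bases, so reads may have been shared between them. Counted together they had a log2 fold change of 1.82 in M1 CM (edgeR adjusted p = 6.41e-08). Psme2b also overlaps Gm12185 over 837 bases and 9930111J21Rik1 over 41 bases on its own strand. These held 15.4% and 14.7% as many counts, and reads may have been shared there too.

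The nuclear activators Psme3 and Psme4 did otherwise. Psme3, encoding PA28 gamma, which is known for nuclear breakdown without ubiquitin, had 191, 196 and 196 CPM in M1 CM, 243, 243 and 247 CPM in M2 CM, 298, 292 and 304 CPM in TAM CM, and 178, 183 and 188 CPM in M0 CM. Neighbouring media did not overlap, with TAM CM highest, then M2 CM, then M1 CM. Its log2 fold changes against M0 CM, in the order M1 CM, M2 CM, TAM CM, were 0.09, 0.42 and 0.71 (edgeR adjusted p = 0.0216, 3.82e-15 and 7.03e-25). The first was lost with library sizes alone (edgeR adjusted p = 0.61) and by DESeq2 (adjusted p = 0.0521). It was also lost without the first or second M0 CM library, the second M1 CM library or the third M1 CM library (edgeR adjusted p = 0.0508 to 0.135). Psme4, encoding PA200, had 161, 157 and 174 CPM in M1 CM, 169, 176 and 173 CPM in M2 CM, 151, 159 and 147 CPM in TAM CM, and 161, 165 and 166 CPM in M0 CM. It was called only in TAM CM, where it was lower by 0.10 on the log2 scale (edgeR adjusted p = 0.0113), and not without the third TAM CM library (edgeR adjusted p = 0.0955).

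Over the 48 tested members, 29 were higher and 3 lower in M1 CM relative to M0 CM, and over all genes tested 27.7% were higher and 25.6% lower. Their median log2 fold change was 0.17, beside 0.01 over all genes. Without the 3 inducible subunits, Psme1, Psme2 and Psme2b the counts were 23 higher and 3 lower of 42. With library sizes alone 26 members were higher and 10 lower. Over all genes that setting gave 3219 higher and 4626 lower, in place of 4023 and 3719. A 2-fold change was passed by 6 members called higher in M1 CM, the 3 inducible subunits, Psme1, Psme2 and Psme2b, and by none called lower.

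In M1 CM the core and the regulatory particle differed in their counts. Of the 14 constitutive core genes (alpha ring, structural beta and constitutive cutting subunits) 13 were higher and 1, Psmb7, lower, with a median log2 fold change of 0.22. Of the 17 regulatory particle genes 5 were higher, 2 lower and 10 were not called, with a median of 0.01, the same as over all genes to 2 decimals. The groups did not overlap for 14 of the 14 core genes and 10 of the 17 regulatory genes, against 58.8% of all genes tested. The difference between the 2 lists was not tested.

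**Figure D3:**
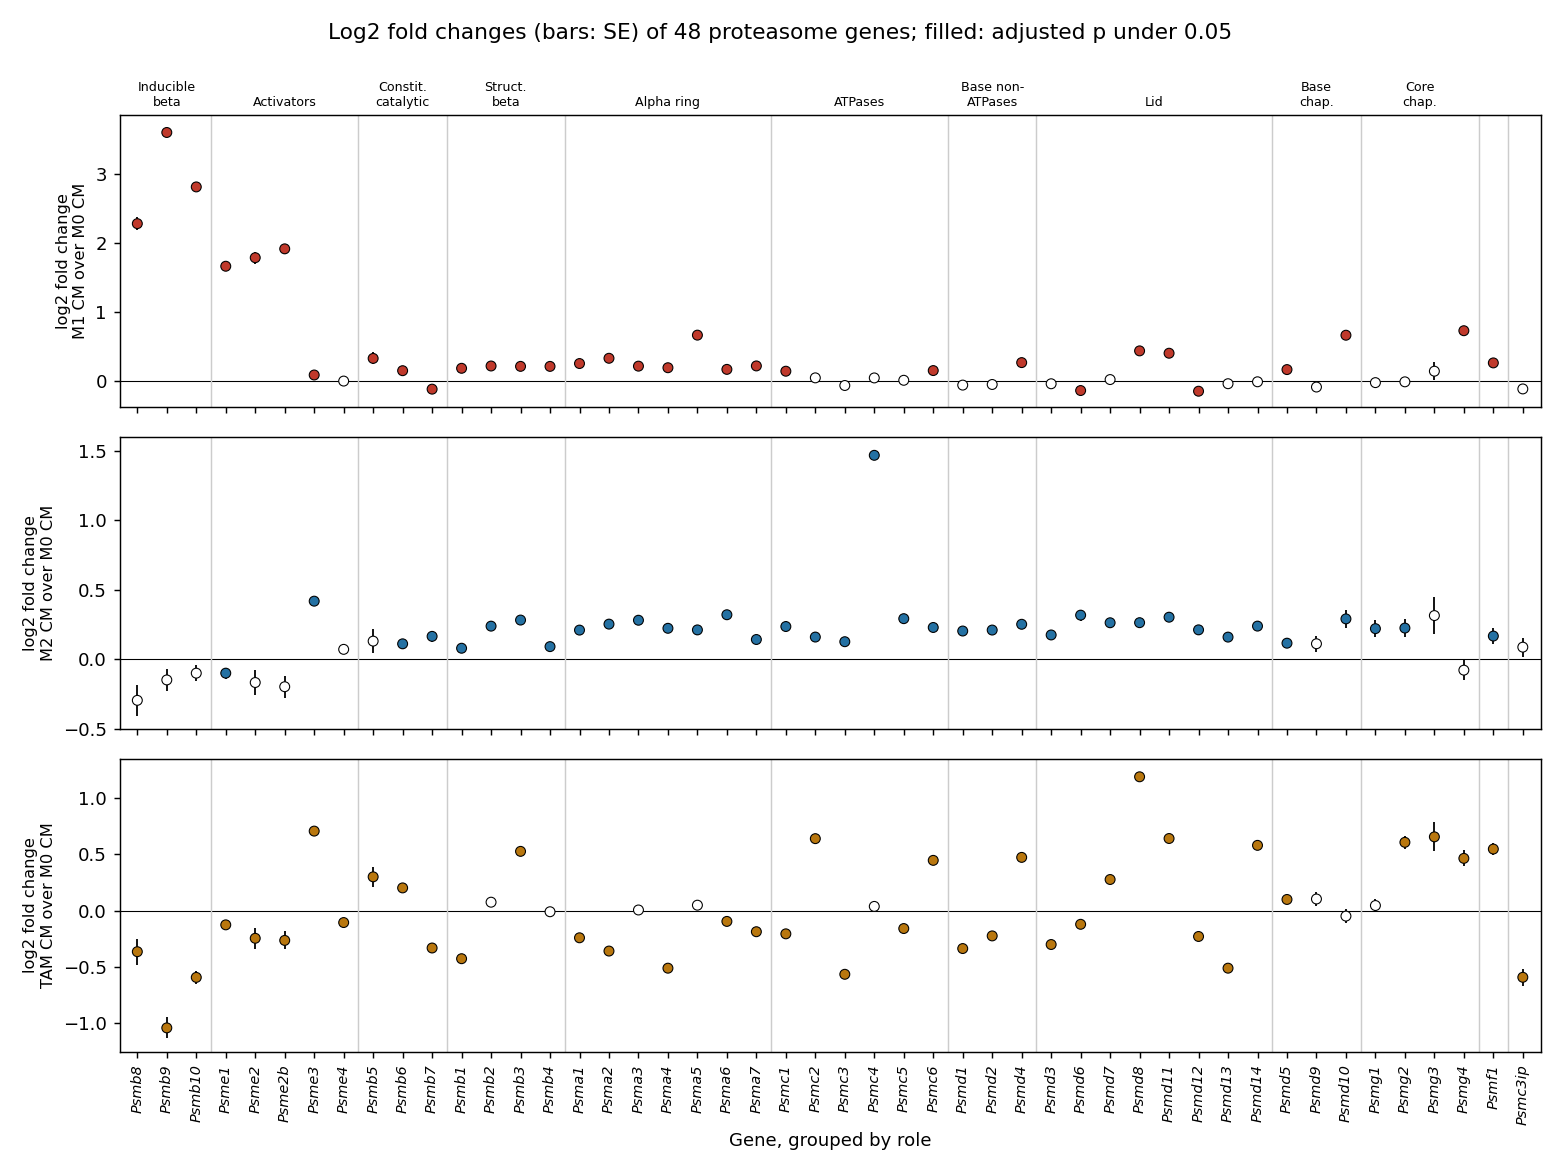
Points are log2 fold changes over M0 CM of the 48 tested members in M1 CM (top), M2 CM (middle) and TAM CM (bottom), grouped by role, with Psmf1 and Psmc3ip in the last 2 columns. Bars are SE, filled points have an edgeR adjusted p under 0.05, and the vertical scales differ. In M1 CM Psmb8, Psmb9, Psmb10, Psme1, Psme2 and Psme2b, at the left, lie between 1.67 and 3.60. In M2 CM Psmc4 lies at 1.47 and most others slightly above 0, and in TAM CM the subunits lie on both sides of 0.

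M2 CM gave small and even differences with 1 exception. Of the 48 members 36 were higher and 1 lower in M2 CM relative to M0 CM. Over all genes tested 21.0% were higher and 18.5% lower. The median log2 fold change of the members was 0.21, beside 0.00 over all genes. Without the third M2 CM library 34 were higher and 0 lower, among them 12 of the 14 core genes and all 17 of the regulatory particle. The same edgeR test with library sizes alone gave 30 higher and 4 lower, and over all genes 2201 higher and 3653 lower in place of 3042 and 2681. All 17 regulatory particle genes and 13 of the 14 core genes were higher, the remaining one being Psmb5, at a log2 fold change of 0.13 (SE 0.09, edgeR adjusted p = 0.284). With the counts of its near copy Gm3375 added, Psmb5 was called higher too, by 0.17 on the log2 scale (edgeR adjusted p = 0.000582). All 31 of these constitutive genes had M2 CM libraries that did not overlap those of M0 CM, against 49.5% of all genes tested. Apart from Psmc4, their log2 fold changes ran only from 0.08 for Psmb1 to 0.32 for Psma6. The weakest calls were those of Psmb1, Psmb4 and Psmb6 (edgeR adjusted p = 0.0489, 0.027 and 0.0129). With library sizes alone their adjusted p from edgeR was 0.583, 0.412 and 0.235. Psmb1 was also lost without any M0 CM library or the second or the third M2 CM library (edgeR adjusted p = 0.0623 to 0.215), and by DESeq2 (adjusted p = 0.0846). Psmb4 was lost without any M0 CM library or the first or second M2 CM library (edgeR adjusted p = 0.0641 to 0.12), and by DESeq2 (adjusted p = 0.0534). Psmb6 was lost without the second M0 CM library or the first M2 CM library (edgeR adjusted p = 0.19 and 0.101).

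The exception was Psmc4, 1 of the 6 ATPases that form the ring of the base. Psmc4 had 201, 192 and 188 CPM in M1 CM, 545, 507 and 508 CPM in M2 CM, 193, 187 and 199 CPM in TAM CM, and 194, 182 and 188 CPM in M0 CM. The 3 M2 CM libraries lay far above the others, and the other media overlapped each other. The log2 fold change in M2 CM was 1.47 (SE 0.04, edgeR adjusted p = 1.56e-35), 2.77-fold and the 156th largest of 14509. No other member passed 2-fold in that comparison. Against M1 CM the log2 fold change in M2 CM was 1.42 (edgeR adjusted p = 6.12e-36). The other 5 ATPases were higher in M2 CM by 0.13 to 0.29 on the log2 scale. Per kilobase, Psmc4 had 240.4 CPM in M2 CM and 86.9 CPM in M0 CM. Within 60 kilobases of Psmc4, at chr7:28041707-28050101 on mm10, 1 other protein-coding gene was tested, Zfp850, which was higher in M2 CM by 0.90 and in TAM CM by 1.34 on the log2 scale (edgeR adjusted p = 5.96e-05 and 2.28e-09), at 4.32 CPM in M2 CM, 5.88 CPM in TAM CM and 2.32 CPM in M0 CM.

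**Figure D4:**
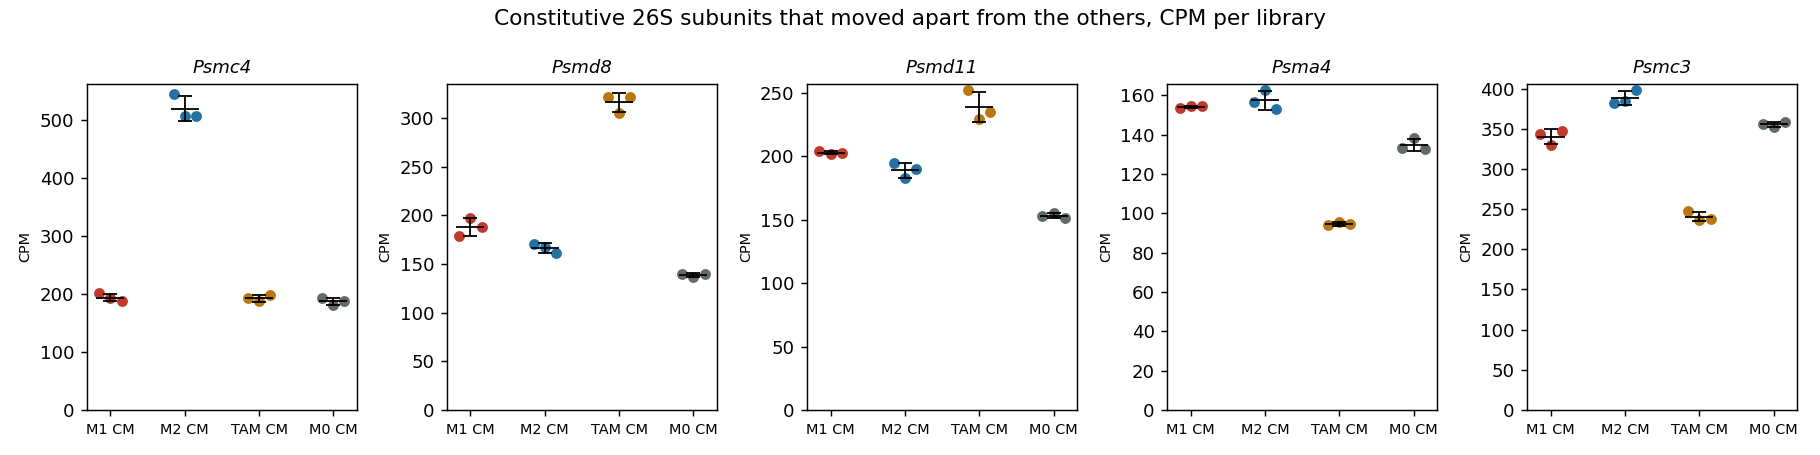
Points are single libraries in counts-per-million (CPM) from 0, with bars for the mean and SD of 3 libraries per medium, for 5 constitutive subunits that moved apart from the rest. Psmc4 is high in M2 CM, at 507 to 545 CPM, Psmd8 and Psmd11 are high in TAM CM, and Psma4 and Psmc3 are low in TAM CM.

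In TAM CM the members were called in both directions, in shares near those of all genes for the higher calls. Of the 48 members 16 were higher and 24 lower in TAM CM relative to M0 CM. Over all genes tested 35.1% were higher and 34.9% lower. The median log2 fold change of the members was -0.07, beside 0.00 over all genes. Groups did not overlap for 42 of the 48, against 73.1% of all genes. Among the 31 constitutive genes of the core and regulatory particle, 10 were higher and 16 lower. The SD of the log2 fold change over these 31 genes was 0.42 in TAM CM, 0.23 in M2 CM and 0.19 in M1 CM, beside 1.09, 0.51 and 0.91 over all genes tested. Without Psmc4, left out after the values were seen, it was 0.07 in M2 CM, the smallest of the 3.

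All 7 alpha ring genes, which form the gate of the core, rose in M1 CM and in M2 CM, and 5 of the 7 fell in TAM CM. Over all genes tested 27.7% were higher in M1 CM, and 21.0% in M2 CM, and in TAM CM 34.9% were lower. In M1 CM their log2 fold changes ran from 0.17 for Psma6 to 0.67 for Psma5. Psma5 had 231, 230.5 and 227 CPM in M1 CM, 173, 165 and 164 CPM in M2 CM, 153, 145 and 151 CPM in TAM CM, and 145, 141 and 148 CPM in M0 CM. Its M1 CM libraries lay above all others, with a log2 fold change of 0.67 (SE 0.03, edgeR adjusted p = 1.58e-22), 1.59-fold, the largest of the 31 constitutive genes in M1 CM. Processed pseudogenes that are at least 95% identical held 12.4% and 10.6% as many counts as Psma5, and with these added the log2 fold change was 0.65 (edgeR adjusted p = 1.47e-22). Psma6 had 191, 191 and 188 CPM in M1 CM, 206, 222 and 205 CPM in M2 CM, 166, 152 and 157 CPM in TAM CM, and 167, 171 and 169 CPM in M0 CM, so that only TAM CM reached below M0 CM. Its log2 fold changes were 0.17, 0.32 and -0.09 in M1 CM, M2 CM and TAM CM (edgeR adjusted p = 7.22e-05, 1.99e-10 and 0.0185). The last was not called without the second M0 CM library, the second TAM CM library or the third TAM CM library (edgeR adjusted p = 0.0503 to 0.14).

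Psma4 had 154, 155 and 154 CPM in M1 CM, 157, 163 and 153 CPM in M2 CM, 93.8, 95.8 and 94.3 CPM in TAM CM, and 133, 138 and 133 CPM in M0 CM. The TAM CM libraries lay below all others, and those of M1 CM and M2 CM overlapped each other above M0 CM. In TAM CM Psma4 fell by 0.51 on the log2 scale (SE 0.04, edgeR adjusted p = 1.56e-17), the largest fall in the alpha ring. Psma2 and Psma1 fell by 0.36 and 0.24 (edgeR adjusted p = 1.36e-12 and 3.47e-08). Psma3 and Psma5 had log2 fold changes of 0.01 and 0.05 in TAM CM (edgeR adjusted p = 0.884 and 0.214). Against M1 CM and against M2 CM all 7 alpha ring genes were lower in TAM CM, with medians of -0.49 and -0.42 on the log2 scale.

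The 4 structural beta genes rose in M1 CM within a narrow range, from 0.19 for Psmb1 to 0.22 for Psmb2 on the log2 scale (edgeR adjusted p = 3.86e-06 and 1.82e-06). In TAM CM they spread out. Psmb3 had 216, 219.5 and 220.2 CPM in M1 CM, 235, 227 and 227 CPM in M2 CM, 278, 268 and 269 CPM in TAM CM, and 185, 189 and 191 CPM in M0 CM, so that every medium lay above M0 CM and TAM CM above all. Psmb1 had 261, 265 and 253 CPM in M1 CM, 233, 246 and 245 CPM in M2 CM, 173, 167 and 169 CPM in TAM CM, and 226, 233 and 226 CPM in M0 CM, so that the TAM CM libraries were below all others. Against M0 CM, Psmb3 rose by 0.53 and Psmb1 fell by 0.43 on the log2 scale in TAM CM (edgeR adjusted p = 5.69e-20 and 5.32e-16). Psmb2 had 145, 144 and 147 CPM in M1 CM, 149, 146 and 146 CPM in M2 CM, 138, 128 and 129 CPM in TAM CM, and 131, 121 and 122 CPM in M0 CM. Its TAM CM libraries overlapped those of M0 CM (log2 fold change 0.08, edgeR adjusted p = 0.0705).

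Among the ATPases, which unfold the substrate, 2 of 6 were called in M1 CM, Psmc6 and Psmc1, both higher, and that of Psmc1 was lost with library sizes alone (edgeR adjusted p = 0.0698). Psmc6 had 195, 199 and 211 CPM in M1 CM, 208, 216 and 213 CPM in M2 CM, 251, 245 and 245 CPM in TAM CM, and 184, 183 and 177 CPM in M0 CM. Psmc2 had 215, 227 and 216 CPM in M1 CM, 239.7, 244 and 228 CPM in M2 CM, 327, 331 and 334 CPM in TAM CM, and 211, 214 and 212 CPM in M0 CM. Both were highest in TAM CM with no overlap, at log2 fold changes of 0.45 for Psmc6 and 0.64 for Psmc2 (edgeR adjusted p = 1.59e-16 and 5.19e-23). Psmc3 had 344, 329.6 and 348 CPM in M1 CM, 382, 385 and 398 CPM in M2 CM, 247, 236 and 238 CPM in TAM CM, and 356, 353 and 358 CPM in M0 CM. Here TAM CM was the lowest, a fall of 0.56 on the log2 scale (edgeR adjusted p = 2.79e-21), the largest of the 31 constitutive genes. In M1 CM the log2 fold change was -0.06 (edgeR adjusted p = 0.0869). Psmc3 overlaps Slc39a13 on the other strand over 4579 bases, and without a stated strand setting their reads cannot be told apart. Psmc1 and Psmc5 also fell in TAM CM, by 0.21 and 0.16 on the log2 scale (edgeR adjusted p = 3.62e-06 and 0.000105), and Psmc4 was not called there.

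Of the other base proteins, Psmd4 is a ubiquitin receptor and Psmd1 and Psmd2 are scaffolds. Psmd4 had 240.4, 225 and 239.9 CPM in M1 CM, 232, 233 and 233 CPM in M2 CM, 274, 264 and 275 CPM in TAM CM, and 196, 193 and 198 CPM in M0 CM. Psmd1 had 246, 234 and 246 CPM in M1 CM, 287, 293 and 291 CPM in M2 CM, 199.5, 194 and 205 CPM in TAM CM, and 251, 254 and 251 CPM in M0 CM. The receptor rose in all media, with log2 fold changes of 0.27, 0.25 and 0.47 in M1 CM, M2 CM and TAM CM (edgeR adjusted p = 1.46e-09, 1.61e-08 and 7.65e-18). The scaffolds fell in TAM CM, Psmd1 by 0.34 and Psmd2 by 0.22 on the log2 scale (edgeR adjusted p = 6.44e-13 and 2.42e-08). Neither was called in M1 CM (log2 fold changes -0.06 and -0.05, edgeR adjusted p = 0.132 and 0.198).

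Of the 8 genes of the lid, which removes the ubiquitin chain, 4 were higher and 4 lower in TAM CM, beside 35.1% and 34.9% of all genes tested. Psmd8 had 179, 197 and 188 CPM in M1 CM, 171, 168 and 161 CPM in M2 CM, 321, 304 and 322 CPM in TAM CM, and 139.8, 137 and 139 CPM in M0 CM. All 3 treated media lay above M0 CM without overlap, and TAM CM above all. The log2 fold change in TAM CM was 1.19 (SE 0.04, edgeR adjusted p = 1.89e-32), 2.28-fold, and no other member called higher passed 2-fold there. In M1 CM it was 0.44 (edgeR adjusted p = 9.27e-15). Psmd11, a scaffold of the lid, had 204, 202 and 202 CPM in M1 CM, 194, 183 and 190.2 CPM in M2 CM, 252, 229.8 and 235 CPM in TAM CM, and 153, 156 and 152 CPM in M0 CM. TAM CM was again above all, with a log2 fold change of 0.64 (edgeR adjusted p = 8.81e-22). Psmd14, the deubiquitinase of the lid, had 116, 120.0 and 125 CPM in M1 CM, 142, 143 and 144 CPM in M2 CM, 182, 181 and 179 CPM in TAM CM, and 119, 118 and 126 CPM in M0 CM. It was highest in TAM CM and overlapped M0 CM in M1 CM, with log2 fold changes of 0.58 and -0.01 (edgeR adjusted p = 7.35e-20 and 0.843).

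Psmd13 had 113, 108 and 108 CPM in M1 CM, 129, 126 and 121 CPM in M2 CM, 81.8, 76.8 and 78.0 CPM in TAM CM, and 115, 109.8 and 112 CPM in M0 CM. Its TAM CM libraries were the lowest, and it fell by 0.51 on the log2 scale there (edgeR adjusted p = 3.92e-16). Psmd12 had 173, 164 and 164 CPM in M1 CM, 215, 215 and 213 CPM in M2 CM, 157, 154 and 163 CPM in TAM CM, and 183, 190.1 and 183 CPM in M0 CM. It was highest in M2 CM, with log2 fold changes of -0.15, 0.21 and -0.23 in M1 CM, M2 CM and TAM CM (edgeR adjusted p = 0.000329, 1.22e-06 and 9.98e-08). Psmd12 and Psmd6, both lid scaffolds, were the 2 regulatory genes lower in M1 CM. Psmd6 fell there by 0.14 on the log2 scale (edgeR adjusted p = 0.00459), a call lost without the second M1 CM library (edgeR adjusted p = 0.0513). In TAM CM it fell by 0.12 on the log2 scale (edgeR adjusted p = 0.00912), a call lost without the third M0 CM library or the second TAM CM library (edgeR adjusted p = 0.0674 and 0.114).

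Assembly factors, which build the particle and then leave it, were read apart from the subunits. Of the 4 core chaperones, 3 were higher in TAM CM, Psmg2, Psmg3 and Psmg4. Of the 14 core genes 3 were higher there, 7 lower and 4 not called. Over all genes tested 35.1% were higher and 34.9% lower in that comparison. Psmg4 had 37.3, 33.5 and 33.5 CPM in M1 CM, 20.4, 19.1 and 20.1 CPM in M2 CM, 31.3, 28.7 and 26.9 CPM in TAM CM, and 20.6, 21.1 and 21.3 CPM in M0 CM. M1 CM was highest and TAM CM next, with log2 fold changes of 0.73 in M1 CM and 0.46 in TAM CM (edgeR adjusted p = 4.12e-13 and 8.44e-08). Psmg3 had 7.24, 7.60 and 6.40 CPM in M1 CM, 8.55, 8.43 and 6.99 CPM in M2 CM, 11.7, 9.85 and 8.81 CPM in TAM CM, and 5.48, 6.51 and 7.32 CPM in M0 CM. The M1 CM and M2 CM libraries overlapped those of M0 CM, and TAM CM lay above M0 CM with a log2 fold change of 0.66 (SE 0.13, edgeR adjusted p = 1.29e-05). Psmg2 was higher in TAM CM by 0.61 on the log2 scale, at 47.8 ± 3.56 CPM in TAM CM and 31.4 ± 1.74 CPM in M0 CM (SD, n = 3 each, edgeR adjusted p = 9.88e-13). Psmg1, which works as a pair with Psmg2, had 31.9, 29.7 and 29.3 CPM in M1 CM, 37.1, 35.3 and 35.3 CPM in M2 CM, 32.9, 31.6 and 31.0 CPM in TAM CM, and 30.6, 30.9 and 30.9 CPM in M0 CM. Against M0 CM it was called in M2 CM and in neither other medium (log2 fold change 0.22, edgeR adjusted p = 0.00224).

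Of the 3 base chaperones, Psmd10, also known as gankyrin, had 43.1, 44.4 and 45.4 CPM in M1 CM, 34.7, 31.5 and 36.2 CPM in M2 CM, 25.2, 27.9 and 27.8 CPM in TAM CM, and 29.0, 27.6 and 27.0 CPM in M0 CM. It rose in M1 CM by 0.67 on the log2 scale (SE 0.06, edgeR adjusted p = 2.53e-13) and was not called in TAM CM (-0.05, edgeR adjusted p = 0.524). Psmd9 had 34.1, 34 and 34.9 CPM in M1 CM, 41.9, 36.9 and 39.3 CPM in M2 CM, 40.8, 38.1 and 38.7 CPM in TAM CM, and 35.4, 36.5 and 37.5 CPM in M0 CM. It was called in none of the 3 comparisons with M0 CM. Psmd5 had 119.9, 119 and 119 CPM in M1 CM, 115, 113 and 118 CPM in M2 CM, 112, 111 and 119 CPM in TAM CM, and 105, 107 and 107 CPM in M0 CM. It was called higher in all 3 media, by 0.17 on the log2 scale in M1 CM, 0.12 in M2 CM, and least in TAM CM, by 0.10. With library sizes alone the calls in M2 CM and TAM CM were lost (edgeR adjusted p = 0.2 and 0.963). They were also lost without the first M0 CM library, the third M2 CM library or the third TAM CM library (edgeR adjusted p = 0.0556 to 0.164).

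Psmf1, a regulator that binds the core, had 47.1, 44.4 and 45.6 CPM in M1 CM, 43.7, 40.8 and 43.7 CPM in M2 CM, 56.3, 56.8 and 53.7 CPM in TAM CM, and 37.3, 40.1 and 36.9 CPM in M0 CM. All treated media lay above M0 CM, and the log2 fold change in TAM CM was 0.55 (edgeR adjusted p = 6.24e-13). Psmc3ip, the gene that is not a subunit, had 22.8, 26.8 and 23.6 CPM in M1 CM, 27.2, 28.8 and 28.0 CPM in M2 CM, 17.7, 17.6 and 17.2 CPM in TAM CM, and 25.5, 26.8 and 26.9 CPM in M0 CM. It was lower in TAM CM by 0.59 on the log2 scale (edgeR adjusted p = 6.55e-10), and it overlaps Mlx on the other strand.

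By order of the 4 means, M0 CM was highest for 0 of the 48 tested members and lowest for 17. The order was not counted over all genes tested, so these counts have no background share beside them. TAM CM was lowest for 25, and for 19 of these it was called lower than each other medium. It was highest for 13. In the regulatory particle M2 CM was highest for 10 of the 17 genes, each time called higher than each other medium, and M1 CM for 0. In the core M1 CM was highest for 7 of the 14, and for 3 of these it was called higher than each other medium. Summed over the 31 constitutive genes, the level was 6303 ± 35.9 CPM in M1 CM, 6978 ± 83.9 CPM in M2 CM, 5916 ± 122 CPM in TAM CM and 5782 ± 15.9 CPM in M0 CM (SD, n = 3 each). The TAM CM libraries, at 5787 to 6030 CPM, and the M0 CM libraries, at 5772 to 5800 CPM, overlapped. Psmc4 alone held 520 ± 21.9 CPM of the sum in M2 CM and 188 ± 6.08 CPM of that in M0 CM.

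The comparisons among the treated media gave the same genes at the extremes. In TAM CM against M1 CM 13 members were higher and 29 lower, while of all genes tested 32.8% were higher and 34.4% lower. The 42 called compare with 67.2% called over all genes, and groups did not overlap for 41 members and 69.5% of all genes. Those lower past 2-fold were the 3 inducible subunits, Psme1, Psme2 and Psme2b. Psmb9 led them with a fall of 4.64 on the log2 scale, to 10.6 ± 0.975 CPM in TAM CM against 265 ± 15.8 CPM in M1 CM (edgeR adjusted p = 5.35e-26). In TAM CM against M2 CM 13 were higher and 27 lower, while of all genes 34.3% were higher and 34.1% lower (68.4% in either direction). Without the third M2 CM library 11 were higher and 28 lower. Groups did not overlap for 41 members and 71.3% of all genes. Psmc4 was lower past 2-fold (a fall of 1.43 on the log2 scale, edgeR adjusted p = 4.34e-36). In M2 CM against M1 CM 20 were higher and 13 lower, while of all genes 27.8% were higher and 28.4% lower (56.2% in either direction). Groups did not overlap for 37 members and 59.8% of all genes. Past 2-fold, Psmc4 was higher and the 3 inducible subunits, Psme1, Psme2 and Psme2b were lower. In that comparison 13 of the 17 regulatory genes and 2 of the 14 core genes were higher. Without the third M2 CM library these numbers were the same, and over all members 20 were higher and 14 lower. These comparisons reuse the libraries of the earlier ones.

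Several of these genes lie close together. Psmb9 (chr17:34181987-34187764, minus strand) and Psmb8 (chr17:34197721-34201454, plus strand) lie in the MHC with Tap1 between them and Tap2 beyond. Tap1 and Tap2 encode the transporter that carries peptides to MHC class I. In M1 CM Tap1 had 408 ± 3.31 CPM, against 31.5 ± 2.71 CPM in M0 CM, and Tap2 256 ± 13.5 CPM, against 73.9 ± 3.84 CPM in M0 CM (SD, n = 3 each), with log2 fold changes of 3.70 and 1.80 (edgeR adjusted p = 4.85e-42 and 9.7e-37). In TAM CM both fell, by 0.47 and 0.81 on the log2 scale (edgeR adjusted p = 9.11e-09 and 2.49e-20). Psmb9 and Tap1 overlap by 212 bases on opposite strands, so reads there cannot be assigned without a strand setting. Psme1 (chr14:55578123-55581529, plus strand) and Psme2 (chr14:55587441-55591113, minus strand) are followed by Rnf31, which encodes a ubiquitin ligase of linear chains, and by the interferon regulator Irf9. These were higher in M1 CM by 1.86 and 3.33 on the log2 scale (edgeR adjusted p = 4.5e-33 and 1.62e-39). In TAM CM Rnf31 was higher by 0.35 (edgeR adjusted p = 1.23e-06). Of the other genes tested within 60 kilobases, Pck2, Dcaf11 and Ipo4 were higher in M1 CM by 1.85, 0.21 and 0.27 (edgeR adjusted p = 7.83e-19, 0.0237 and 4.91e-06). Tm9sf1 and Tssk4 were not called there, with log2 fold changes of 0.01 and 0.59 (edgeR adjusted p = 0.788 and 0.0957). Psmb10 (chr8:105935735-105938444, minus strand) stands alone on chromosome 8. Its neighbour Ctrl was higher in M1 CM by 2.44 on the log2 scale (edgeR adjusted p = 4.23e-07) at a low level, 1.88 CPM in M1 CM and 0.347 CPM in M0 CM. The neighbours Pskh1 and Lcat had log2 fold changes of -0.11 and 0.20 there (edgeR adjusted p = 0.174 and 0.561).

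The genes of the same pathway outside the symbol rule were read from lists. Interferon regulators were higher in M1 CM. The log2 fold changes were 3.73 for Stat2, 3.33 for Irf9, 3.06 for Nlrc5, the activator of class I genes, and 2.86 for Irf1. The edgeR adjusted p was 8.56e-39 for Nlrc5 and 1.92e-47 for Irf1. Irf8 was not tested, at 0.0160 CPM in M1 CM and 0.0586 CPM in M0 CM. In TAM CM Stat2 was lower, by 0.50 on the log2 scale. Of the 5 regulators tested, 2 were higher and 2 lower in TAM CM. Irf9 was higher there by 0.40 on the log2 scale (edgeR adjusted p = 6.4e-05). Nlrc5 was higher there, at 71.4 ± 2.81 CPM in TAM CM against 35.3 ± 1.60 CPM in M0 CM (SD, n = 3 each, edgeR adjusted p = 9.71e-21). In M2 CM Stat2, Irf1 and Nlrc5 were lower, by 0.23, 0.23 and 0.33 on the log2 scale.

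Of 11 genes of class I peptide supply and loading, 8 were higher and 2 lower in M1 CM, and 6 were higher and 4 lower in TAM CM. B2m, the light chain of class I, had 2427 ± 60.3 CPM in M1 CM, 536 ± 6.13 CPM in M2 CM, 1094 ± 9.01 CPM in TAM CM and 615 ± 7.05 CPM in M0 CM (SD, n = 3 each). H2-K1, a class I heavy chain, had 804 ± 33.5 CPM in M1 CM, 266 ± 2.67 CPM in M2 CM, 401 ± 13.8 CPM in TAM CM and 234 ± 8.21 CPM in M0 CM (SD, n = 3 each). In TAM CM these 2 genes were thus higher (0.83 and 0.78 on the log2 scale, edgeR adjusted p = 2.34e-30 and 6.98e-26), whereas Tap1, Tap2 and the inducible subunits were lower. All 6 interferon-induced genes of ubiquitin-like modification were higher in M1 CM, among them Usp18 at 5.93, Herc6 at 4.32 and Ube2l6 at 3.53 on the log2 scale (edgeR adjusted p = 1.61e-33, 5.12e-32 and 1.75e-46).

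Nfe2l1 encodes NRF1, a transcription factor known to raise proteasome genes when proteasome activity falls short, after the enzymes encoded by Ngly1 and Ddi2 have processed it. Nfe2l1 had 656, 741 and 660.2 CPM in M1 CM, 338, 337 and 328 CPM in M2 CM, 926, 924 and 937 CPM in TAM CM, and 326, 324 and 318 CPM in M0 CM. Its TAM CM libraries were the highest and those of M1 CM next, with log2 fold changes of 1.53 and 1.09 (edgeR adjusted p = 1.69e-36 and 2.59e-30), and in M2 CM it was 0.05 (edgeR adjusted p = 0.264). Ddi2 was higher in TAM CM by 0.52 on the log2 scale, and Ngly1 was lower by 0.46 in M1 CM and by 0.37 in TAM CM (edgeR adjusted p = 1.97e-15, 3.76e-06 and 9.09e-05). Of the 31 constitutive genes M1 CM had 18 higher and 3 lower, with 30 and 0 in M2 CM, and 10 and 16 in TAM CM, and any part of Nfe2l1 in these differences was not tested.

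Of 11 further proteasome genes M1 CM had 3 higher and 1 lower, with 6 and 0 in M2 CM, and 5 and 2 in TAM CM. Pomp, the chaperone that helps to close the core around the cutting subunits, had 144 ± 3.91 CPM in M1 CM, 119 ± 8.82 CPM in M2 CM, 66.7 ± 3.94 CPM in TAM CM and 99.0 ± 1.69 CPM in M0 CM (SD, n = 3 each). It rose by 0.55 in M1 CM and 0.26 in M2 CM and fell by 0.57 in TAM CM on the log2 scale (edgeR adjusted p = 1.59e-14, 3.44e-06 and 1.41e-14), opposite in TAM CM to the core chaperones Psmg2, Psmg3 and Psmg4. Akirin2, which is known to carry proteasomes into the nucleus, and Zfand5, an activator, were higher in TAM CM by 0.63 and 0.48 on the log2 scale (edgeR adjusted p = 3.06e-15 and 4.46e-13).

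Of 6 ubiquitin and E1 genes M1 CM had 3 higher and 0 lower, with 2 and 0 in M2 CM, and 4 and 1 in TAM CM. Ubb, a polyubiquitin gene, rose by 0.56 in M1 CM and 0.77 in TAM CM on the log2 scale (edgeR adjusted p = 8.47e-15 and 5.59e-19). The E1 enzymes Uba6 and Uba1 rose by 0.61 and 0.31 in TAM CM (edgeR adjusted p = 3.7e-13 and 1.04e-12). Of 9 shuttle factors and VCP genes M1 CM had 2 higher and 3 lower, with 6 and 0 in M2 CM, and 5 and 2 in TAM CM. Vcp, the unfoldase that hands substrates to the proteasome, fell by 0.64 on the log2 scale in TAM CM, to 304 ± 18.5 CPM in TAM CM against 473 ± 18.4 CPM in M0 CM (SD, n = 3 each, edgeR adjusted p = 2.01e-14). In TAM CM the shuttles Ubqln4 and Rad23b were higher by 0.47 and 0.37 on the log2 scale (edgeR adjusted p = 1.08e-15 and 1.69e-15). The COP9 signalosome, a complex built like the lid, had 1 gene higher and 4 lower of 10 in M1 CM, 6 and 0 in M2 CM, and 2 and 6 in TAM CM. Cops9, Cops6 and Cops2 fell in TAM CM by 0.62, 0.34 and 0.10 on the log2 scale (edgeR adjusted p = 1.83e-11, 2.42e-11 and 0.00972). In M2 CM Cops2 was above M0 CM, at 271 ± 8.40 CPM in M2 CM against 222 ± 3.20 CPM in M0 CM (SD, n = 3 each). The shares of all genes called that were given above for each comparison are the background for these counts too.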

How the data were processed

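SCC7 cells in 4 conditioned media were measured by RNA sequencing of 12 libraries. Per the labels' protocols, RNA came from Trizol extraction. The deposited file holds raw read counts per Ensembl gene. The submitters' processing notes name HISAT2 2.0 and mm10. Counting tool, annotation and strandedness: not given in the sources used here.

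Identifiers were matched to GENCODE M21 (55141 of 55487), which gave positions and union exon lengths. Counts were filtered by filterByExpr (14509 genes kept, the rest holding 0.0815% of counts), scaled by TMM and fitted in edgeR 4.0.16 (R 4.3.3; glmQLFit, robust) with 4 group means, over all 12 libraries. The 6 contrasts were tested with glmQLFTest, and p-values were adjusted (Benjamini-Hochberg) over the whole table. Steps were tested on simulated counts. Near copies (at least 95% identity over 200 bases) were searched with BLAST+ 2.17.0. Alternatives included DESeq2 1.42.0, other scalings and filters, a replicate term and each library left out.

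Values in every library are given for the cutting subunits, Psme1, Psme2 and, in each role, the members with the highest and lowest change in M1 CM and TAM CM. Psme2b, Psma2, Psmd6, Psmd11, Psmd14 and Vcp were named after their values were seen. Companion lists give up to 3 genes of smallest p, regulators and NRF1 genes, and some results are not reported here. Members, lists and motifs were chosen with earlier results of these data known.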

Additional observations from a re-analysis of the deposited data

How the results depend on the processing

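The 224 calls of proteasome genes over the 6 comparisons kept their direction under every setting run. Calls lost were 2 with DESeq2 size factors, 12 with library sizes alone, 8 with no filter on low counts, 2 with a filter of 1 CPM in 3 libraries, 1 with only the 2 groups compared, 5 by DESeq2's Wald test, 0 with the replicate number as a block, and between 2 and 9 for each library left out. With near copies added, a setting chosen after seeing the data, 0 of 220 were lost.

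Members lower in M1 CM against M0 CM numbered 10 in place of 3 with library sizes alone, where the median of all genes moved to -0.06. Members lower in M2 CM against M0 CM, 1 in the result reported, were 2 with DESeq2 size factors, 4 with library sizes alone, 3 with no filter, 2 with the 1 CPM filter, 3 with the replicate block, 3 with only the 2 groups compared, 2 by DESeq2's Wald test and 0 to 2 with a library left out. The cause was not tested. The inducible share of the cutting subunits was 53.2% in M1 CM, 12.9% in M2 CM, 9.52% in TAM CM and 15.6% in M0 CM with near copies added, since Psmb5 then takes in the counts of Gm3375.

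The labels number the libraries 1 to 3 in each medium. Deviations from the group means correlated at r between -0.03 and 0.05 for same-numbered libraries of different media. For libraries of other numbers r was between -0.05 and 0.05. The numbers were not taken as pairs, although 8 of 12 libraries correlated best with one of their own number. Whether same-numbered libraries share a batch was not tested. With the replicate block 29 members were higher and 3 lower in M1 CM against M0 CM, 36 and 3 in M2 CM, and 17 and 24 in TAM CM. Changes of about 0.1 on the log2 scale rest on small spreads between 3 libraries. Genes that share sequence or a locus, 10 members with near copies and 8 with an overlapping gene holding over 1% of their counts, are uncertain, and messenger RNA does not give the amount of assembled proteasome.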
